A study of Mus musculus with 5 samples.

Results

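The 39 forkhead (Fox) genes listed for this account were taken by symbol from the protein-coding genes of the RefSeq annotation, which holds 21887 such genes. All 39 were found. Each gene was read as a window at its CpG-richer end, from 1000 bp outside to 500 bp inside that end, and as a gene body, which is the rest of the gene. The CpG-richer end is the end of the gene with more listed CpG cytosines. It was the end with the lower coordinate in 22 genes and the end with the higher coordinate in 17. RefSeq gives a strand here for 25 of the genes, and in 22 of these the CpG-richer end was the annotated start.

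Reduced representation bisulfite sequencing, a method that favours CpG-rich fragments, gave the DNA methylation of 5 mouse tissues of the strain C57BL/6x129S6. There was 1 library of each of 4 teratomas, tumours that contain differentiated tissues, grown from embryonic stem cells that had been placed into tetraploid embryos. These are labelled by the culture of the cells as P5_2iL, P5_2iL_F, P5_a2iL_1 and P5_LCDM_1, and the labels spell out neither the culture media, the letter F nor the number at the end. The other library is of muscle and is labelled control. Between 4017125 cytosines in muscle and 5323090 in P5_2iL_F were listed, but the reads behind each percentage are not, so no confidence interval could be given. With 1 library per tissue no test between tissues was possible, no p-value is given, and every difference is between single libraries. Each tissue is a mixture, so a shift in the proportions of its cells and a change within a cell type cannot be told apart.

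Forkhead proteins are transcription factors that bind DNA through a winged-helix domain. Many of them, such as the Foxa, Foxc, Foxd and Foxf proteins, are switched on in restricted parts of the embryo, whereas others, such as Foxo, Foxk and Foxj3, are made in many tissues. Their genes commonly start in CpG islands, CpG-rich stretches that stay unmethylated in most cells whether the gene is active or not.

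Several starts of forkhead genes are shown because the results turn on how their CpGs were read. RefSeq promoter sequences of GRCm38.p6, from 250 bases before to 50 bases after a start, were matched to 25 of the 39 genes and comprise 29 starts. They held a median of 22 CpGs, against 7 in all 32851 promoters of the table, and a median of 63% G and C, against 52.7%. The forkhead motif TGTTTAC, the only motif searched, on both strands, was present in 1 of the 29 (3.45%), that of Foxa1, and in 3.65% of all promoters. In the sequences below capitals mark each CpG that was listed in all 5 libraries on at least 1 strand. All are printed 5′ to 3′ in the direction of transcription. Foxd3 lies on the plus strand and the others on the minus strand.
Foxd2 chr4:114908849-114909148: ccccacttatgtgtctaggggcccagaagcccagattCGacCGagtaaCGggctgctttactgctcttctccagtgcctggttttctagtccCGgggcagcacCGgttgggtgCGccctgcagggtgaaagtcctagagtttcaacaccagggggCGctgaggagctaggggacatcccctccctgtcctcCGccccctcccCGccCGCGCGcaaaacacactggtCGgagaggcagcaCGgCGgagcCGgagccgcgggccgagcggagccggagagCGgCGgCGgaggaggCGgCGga
Foxd3 chr4:99656049-99656348: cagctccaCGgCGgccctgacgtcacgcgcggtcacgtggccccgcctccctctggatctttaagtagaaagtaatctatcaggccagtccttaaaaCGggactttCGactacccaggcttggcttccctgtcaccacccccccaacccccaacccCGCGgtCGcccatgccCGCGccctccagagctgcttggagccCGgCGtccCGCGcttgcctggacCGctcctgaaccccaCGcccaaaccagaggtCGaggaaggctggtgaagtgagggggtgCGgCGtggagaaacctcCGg
Foxe3 chr4:114926018-114926317: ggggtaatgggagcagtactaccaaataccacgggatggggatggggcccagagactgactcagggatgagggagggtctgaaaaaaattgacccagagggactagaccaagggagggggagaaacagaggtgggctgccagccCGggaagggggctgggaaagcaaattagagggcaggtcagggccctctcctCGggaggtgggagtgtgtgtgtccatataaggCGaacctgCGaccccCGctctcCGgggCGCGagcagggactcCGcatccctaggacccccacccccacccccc
Foxa2 chr2:148046920-148047219: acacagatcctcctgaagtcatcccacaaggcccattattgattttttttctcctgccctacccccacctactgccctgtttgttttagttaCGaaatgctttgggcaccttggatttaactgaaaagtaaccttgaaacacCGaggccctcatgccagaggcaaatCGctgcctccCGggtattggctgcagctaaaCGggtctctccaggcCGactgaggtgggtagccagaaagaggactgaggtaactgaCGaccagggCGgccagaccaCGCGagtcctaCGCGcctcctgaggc
Foxp1 chr6:99028249-99028548: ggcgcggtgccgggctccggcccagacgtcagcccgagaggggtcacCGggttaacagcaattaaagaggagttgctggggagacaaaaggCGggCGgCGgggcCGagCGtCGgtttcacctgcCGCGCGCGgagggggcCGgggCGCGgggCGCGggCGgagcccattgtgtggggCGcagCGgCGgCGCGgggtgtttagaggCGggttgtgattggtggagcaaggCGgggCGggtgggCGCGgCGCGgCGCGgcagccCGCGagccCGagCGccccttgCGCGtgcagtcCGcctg
Foxp1 chr6:99266466-99266765: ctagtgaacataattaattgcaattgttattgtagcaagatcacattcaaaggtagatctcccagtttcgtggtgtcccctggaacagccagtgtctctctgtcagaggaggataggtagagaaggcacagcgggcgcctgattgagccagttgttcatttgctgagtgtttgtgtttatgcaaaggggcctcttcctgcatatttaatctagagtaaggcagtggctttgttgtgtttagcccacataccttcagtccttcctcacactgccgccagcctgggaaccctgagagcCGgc

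The start of Foxd2, which holds 26 CpGs, was nearly free of methylation, with 1.15% in P5_2iL, 0.196% in P5_2iL_F, 0% in P5_a2iL_1 and 0.431% in P5_LCDM_1, against 0% in muscle, over 34 cytosines. Foxd3, a factor of the early embryo and neural crest, had 9.05%, 4.89%, 14.6% and 15.7% in the 4 teratomas in that order, against 2.08% in muscle, over 36 cytosines. The start of the lens factor Foxe3 held 10 CpGs, of which 9 were measured, with 15.0%, 17.1%, 8.57% and 15.8% in the teratomas, against 0.952% in muscle, over 15 cytosines. Thus the Foxd3 and Foxe3 starts were low everywhere but higher in each teratoma than in muscle, by less than the 25 percentage points used below. The start of Foxa2, an endoderm and floor plate factor, had 2.79%, 2.55%, 4.37% and 14.1%, against 8.14% in muscle.

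The 3 Foxp1 starts in the table differed in CpG content. The one with 13 CpGs, at chr6:99520944-99521243, had 0.791%, 0.229%, 1.38% and 0.985% in the teratomas, against 0.621% in muscle, over 23 cytosines. The one with 44 CpGs had at most 0.737% in the teratomas, in P5_LCDM_1, against 2.08% in muscle, over 48 cytosines. The one with 5 CpGs had a single cytosine listed in all 5 libraries. It was 71.4% methylated in P5_LCDM_1 and 0% in the other 3 teratomas and in muscle, and it lies in a stretch of the gene that is described below.

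Across the family the CpG-richer gene end was largely unmethylated. A level here is the mean percentage over the cytosines of a window listed in all 5 libraries, and 37 genes had the required 3 or more at this end. The thymus factor Foxn1 had 0 such cytosines and Foxr1 had 1. The median level over the 37 genes was 1.11% in P5_2iL, 1.99% in P5_2iL_F, 2.97% in P5_a2iL_1, 3.26% in P5_LCDM_1 and 0.974% in muscle. The medians of all 14637 genes measured this way were 1.13%, 1.19%, 1.47%, 1.48% and 1.02% in the same libraries.

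Below 10% lay 30, 32, 31 and 29 of the 37 forkhead genes in P5_2iL, P5_2iL_F, P5_a2iL_1 and P5_LCDM_1, and 35 in muscle. That is 81.1%, 86.5%, 83.8% and 78.4% of them in the teratomas and 94.6% in muscle, where the shares of all genes were 75.1%, 75.0%, 73.9% and 72.6% in the teratomas and 77.2% in muscle. Only Foxi1 and Foxs1 were above 50%, and both were so in all 5 libraries. The measure of error within a library is the difference between its 2 DNA strands. Its median over the genes at this end ran from 0.532 points in P5_2iL to 1.74 points in P5_LCDM_1, and it was 0.571 points in muscle.

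**Figure D1:**
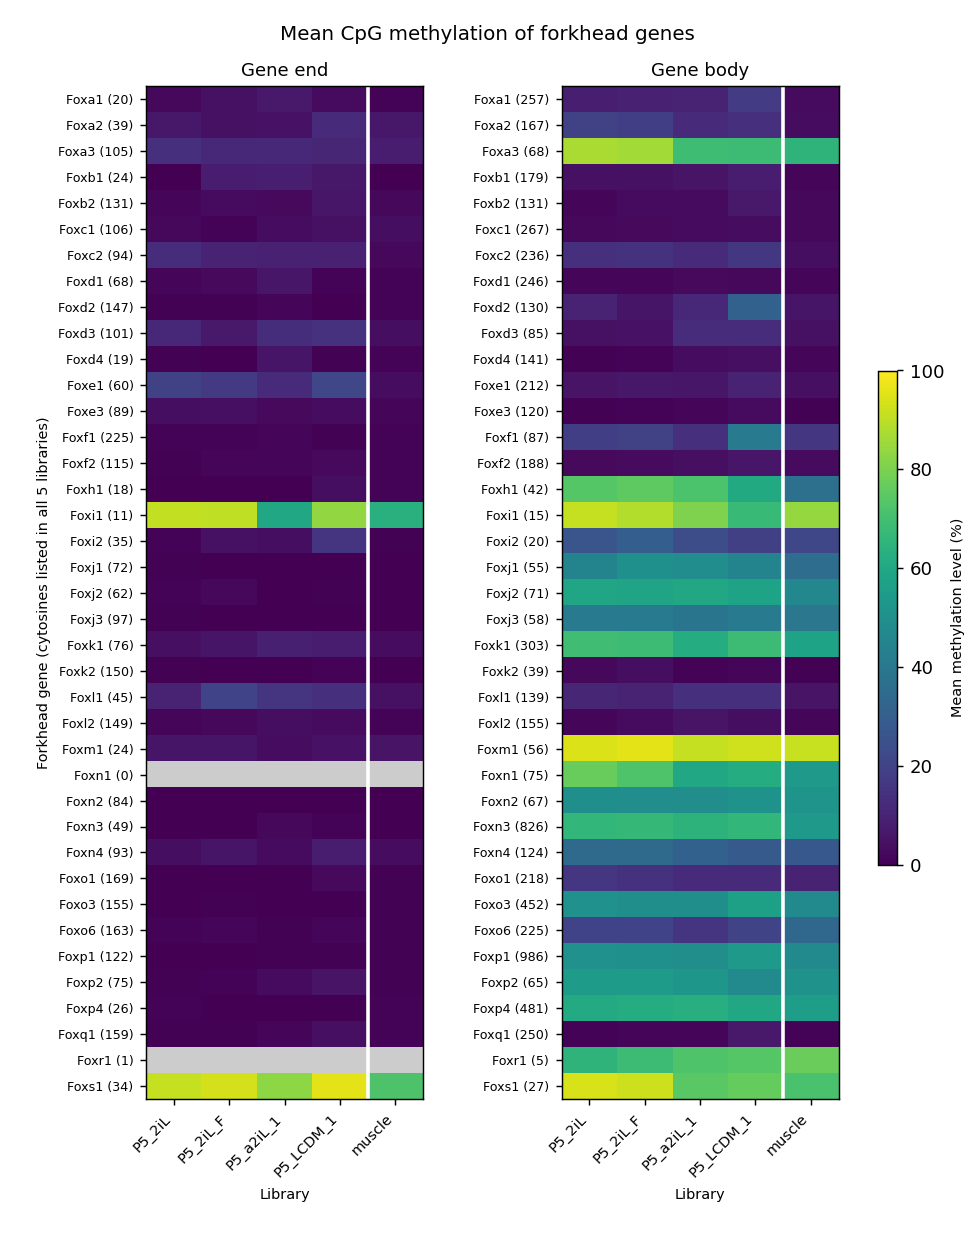
Mean CpG methylation (%, colour) of the 39 forkhead genes in the 4 teratoma libraries and in muscle, to the right of the white line, at the CpG-richer gene end (left panel) and in the gene body (right panel). The number of cytosines listed in all 5 libraries stands beside each gene, and grey marks genes with fewer than 3. The gene ends are dark except at Foxi1 and Foxs1, while the bodies run from near 0 to above 90%.

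Many members of different roles had gene ends near 0. The stress and insulin response factors Foxo1 and Foxo3 had at most 2.46%, at Foxo1 in P5_LCDM_1. The gene end of Foxk2 was at or below 0.912%, that of Foxj3 at or below 0.405%, and that of Foxp1, a factor of the lung, heart and lymphocytes, at or below 0.464% in every library. Foxj1, the regulator of motile cilia, was at or below 0.506% in every library. The lung and gut mesenchyme gene Foxf1 had 0.782%, 0.964%, 1.27% and 0.721% in the teratomas and 0.856% in muscle over 225 cytosines. These groups overlapped.

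Several developmental members were low in muscle and moderately methylated in the teratomas. Foxe1, a thyroid and palate factor, had 19.7% in P5_2iL, 17.1% in P5_2iL_F, 12.3% in P5_a2iL_1 and 21.4% in P5_LCDM_1, against 3.26% in muscle, over 60 cytosines. Foxl1, a gut mesenchyme factor, had 10.1%, 20.2%, 15.2% and 13.9% in the teratomas in that order, against 4.34% in muscle. Foxc2, which acts in lymphatic vessels and somites, had 12.6%, 9.93%, 9.30% and 9.10%, against 2.07% in muscle, over 94 cytosines. In these 3 genes each teratoma was above muscle over both strands together. The strands of Foxl1 differed in P5_2iL_F. Its plus strand had 26.6%, against 5.38% in muscle, over 33 cytosines. Its minus strand had 0.826%, against 1.61% in muscle, over 11 cytosines. The endoderm gene Foxa3 had 13.8%, 11.4%, 11.1% and 10.9%, against 7.89% in muscle. Its start sequence did not share these levels. The 25 cytosines measured there averaged at most 1.23%, a value reached by P5_2iL, while muscle had 0%. The Foxa3 window also overlaps the protein-coding gene Sympk.

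In other members 1 or more teratomas stood alone. Foxi2 had 15.1% in P5_LCDM_1, against 3.79% in P5_a2iL_1, 4.40% in P5_2iL_F, 1.14% in P5_2iL and 0.714% in muscle. The strands of Foxi2 in P5_LCDM_1 differed by 27.7 points, so that the value is poorly fixed. Foxb1, of the hindbrain and hypothalamus, had 8.09%, 8.27% and 6.59% in P5_2iL_F, P5_a2iL_1 and P5_LCDM_1, against 0.278% in P5_2iL and 0% in muscle. Foxa2 was highest in P5_LCDM_1, with 12.1%, against 4.59% to 6.35% in the other teratomas and 6.30% in muscle.

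A difference was called when 2 libraries differed by 25 percentage points or more in mean level over 3 or more cytosines listed in both. This is a rule of size and no test. At the gene end 1 of 38 forkhead genes was called in P5_2iL against muscle, where 5.96% of all genes were called. In P5_2iL_F against muscle it was 1 of 37, with 5.62% of all genes called. In P5_a2iL_1 and in P5_LCDM_1 against muscle 0 of 38 were called, with backgrounds of 3.99% and 4.61%. Each of these counts lay below the share of all genes. Among the teratomas no forkhead gene end was called in any of the 6 pairs, where 0.806% (P5_2iL_F minus P5_2iL), 3.16% (P5_a2iL_1 minus P5_2iL), 4.54% (P5_LCDM_1 minus P5_2iL), 2.54% (P5_a2iL_1 minus P5_2iL_F), 4.25% (P5_LCDM_1 minus P5_2iL_F) and 3.12% (P5_LCDM_1 minus P5_a2iL_1) of all genes were called.

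The called gene was Foxi1 (chr11:34204341-34208089), a factor of the inner ear and of ion-transporting cells of the kidney. Its gene end had 90.9% in P5_2iL, 90.4% in P5_2iL_F, 59.9% in P5_a2iL_1 and 83.8% in P5_LCDM_1, against 63.6% in muscle, over 11 cytosines. The differences from muscle were 27.3 points in P5_2iL and 26.8 points in P5_2iL_F. They did not hold on both strands. On the plus strand P5_2iL was 66.7 points above muscle and on the minus strand it was lower by 20 points, and the strands of the muscle library itself differed by 66.7 points.

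Foxs1, which is made in the peripheral nervous system and in cells around vessels, was methylated at its gene end throughout. It had 91.3%, 93.5%, 83.0% and 95.9% in P5_2iL, P5_2iL_F, P5_a2iL_1 and P5_LCDM_1, against 72.1% in muscle, over 34 cytosines. The differences from muscle over the cytosines of each pair were 19.2, 20.9, 10.97 and 23.1 points in that order, below the rule of 25 points.

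Shifts below the rule leaned upwards in the teratomas. The forkhead gene end was above muscle in 26 of 38 genes in P5_2iL, 28 of 37 in P5_2iL_F, 26 of 38 in P5_a2iL_1 and 30 of 38 in P5_LCDM_1. These are 68.4%, 75.7%, 68.4% and 78.9% of the measured genes, where 60.6%, 59.3%, 56.8% and 58.2% of all genes lay above muscle. The median difference was 0.32, 0.71, 0.45 and 1.85 points, against 0.26, 0.23, 0.21 and 0.21 points over all genes. The comparisons share the muscle library and are not independent of each other, and nothing particular to the family follows from these medians.

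Marker genes of other tissues also differed between the libraries. Of 19 measured gene ends of skeletal muscle genes, 12, 13, 9 and 7 were called higher in P5_2iL, P5_2iL_F, P5_a2iL_1 and P5_LCDM_1 than in muscle and 0 lower, with median differences of 38.3, 37.7, 21.7 and 20.8 points. The library labelled muscle thus had the lower methylation at skeletal muscle genes. Of the blood and immune gene ends 7 of 9, 7 of 9, 4 of 8 and 6 of 9 were called lower in these teratomas, and 1, 1, 0 and 0 higher. The shares of all gene ends called in either direction against muscle were 5.96%, 5.62%, 3.99% and 4.61%. The part of such differences in cell types in the forkhead values was not tested.

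Gene bodies of the family held a far wider range, and all 39 were measured. The median body level was 20.1% in P5_2iL, 20.2% in P5_2iL_F, 15.1% in P5_a2iL_1, 28.5% in P5_LCDM_1 and 21.5% in muscle. Over all 16395 genes it was 66.4%, 65.6%, 62.0%, 58.8% and 55.5%. Body levels below 10% were found for 14, 14, 12 and 11 of the 39 in the teratomas and for 18 in muscle. That is 35.9%, 35.9%, 30.8% and 28.2% in the teratomas and 46.2% in muscle, against 11.3%, 11.2%, 10.9% and 10.3% in the teratomas and 12.5% in muscle for all genes.

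The low end held short genes of regional factors and also the long gene Foxk2, whose body had 2.29%, 3.85%, 0.967% and 1.78% in the teratomas, against 0.761% in muscle, over 39 cytosines. Foxk2 is 49914 bp long. In it or within 5 kb of it only 2 tiles of 1 kb held 3 or more cytosines listed in all 5 libraries. Most of its body was therefore not measured. Foxd1, a kidney stroma and forebrain factor, had a body level of 1.84%, 1.27%, 2.52% and 2.24% in the teratomas, against 1.87% in muscle, over 246 cytosines. Foxc1, an eye and skeleton factor, had 2.31%, 2.43%, 3.05% and 3.42%, against 2.34% in muscle, over 267 cytosines. Teratomas and muscle overlapped in Foxd1, and in Foxc1 they lay within 1.11 points of each other. Foxm1, the mitotic regulator, stood at the other end, with 94.9%, 96.0%, 91.4% and 92.9%, against 91.5% in muscle.

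Body levels were also compared among members that sit next to each other in the genome. In the chromosome 13 group of Foxq1, Foxf2 and Foxc1 the bodies were at or below 6.95% in all 5 libraries. In the chromosome 8 group Foxf1, Foxc2 and Foxl1 had bodies of 10.1% to 19.2% in P5_2iL, P5_2iL_F and P5_a2iL_1. In P5_LCDM_1 those of Foxc2 and Foxl1 were 16.1% and 13.9%, while that of Foxf1 was 41.7%. On chromosome 4 the body of Foxe3 was at or below 3.10% in every library, while that of its neighbour Foxd2 reached 31.2% in P5_LCDM_1.

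Levels were also read by CpG density, over the cytosines of gene end and body together and not of the body alone. Among forkhead cytosines with 30 or more CpG cytosines within 100 bp, the mean level was 3.48%, 3.84%, 3.89% and 5.70% in the teratomas and 2.78% in muscle, over 4806 cytosines. The same class in all genes had 3.35%, 3.33%, 3.61% and 4.29% in the teratomas and 2.49% in muscle. Among forkhead cytosines with fewer than 5 neighbours the levels were 75.9%, 74.8%, 71.5% and 75.0% in the teratomas and 63.2% in muscle, over 629 cytosines, where all genes had 79.7%, 78.8%, 74.3% and 70.5% in the teratomas and 67.9% in muscle. In the sparse class P5_LCDM_1 was the lowest teratoma over all genes and not over the forkhead genes.

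In the gene body 1 of 39 forkhead genes was called in each of P5_2iL, P5_2iL_F, P5_a2iL_1 and P5_LCDM_1 against muscle, where 7.26%, 6.19%, 3.41% and 3.89% of all genes were called. Between teratomas 1 of 39 was called in P5_LCDM_1 against P5_2iL_F, with 4.51% of all genes, and 0 of 39 in the other pairs. There the background was 0.653% for P5_2iL_F minus P5_2iL, 2.27% for P5_a2iL_1 minus P5_2iL, 5.2% for P5_LCDM_1 minus P5_2iL, 1.82% for P5_a2iL_1 minus P5_2iL_F and 2.63% for P5_LCDM_1 minus P5_a2iL_1. The family's share lay below the background in each pair. The calls fell on Foxh1, Foxd2 and Foxr1.

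Foxh1 (chr15:76667829-76671614), the DNA-binding partner of Smad proteins in Nodal signalling, was the gene called in 3 teratomas. Its body had 73.7% in P5_2iL, 75.3% in P5_2iL_F, 71.6% in P5_a2iL_1 and 60.7% in P5_LCDM_1, against 36.7% in muscle, over 42 cytosines. All 4 teratomas were above muscle. The differences were 37.0, 38.5, 34.9 and 24.0 points, the last just under the rule. In P5_2iL the difference was 31.6 points on the plus and 47.5 points on the minus strand, and both strands were higher in every teratoma. The 42 cytosines lay in the tile chr15:76669001-76670000, outside the neighbouring gene Kifc2 that overlaps the other end of Foxh1. The gene end of Foxh1 had 0% in P5_2iL, P5_2iL_F and P5_a2iL_1, 3.77% in P5_LCDM_1 and 1.11% in muscle.

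Foxd2 (chr4:114906280-114908898), a factor of kidney and facial mesenchyme, was called in P5_LCDM_1. Its body had 31.2% in P5_LCDM_1, 11.3% in P5_a2iL_1, 5.58% in P5_2iL_F, 9.59% in P5_2iL and 5.66% in muscle, as means of 130 cytosines. Over the 136 cytosines shared with muscle the level was 34.0% in P5_LCDM_1 against 7.99% in muscle, a difference of 26.02 points, with 23.0 points on the plus and 33.1 points on the minus strand. P5_LCDM_1 was also 19.2 points above P5_2iL and 17.9 points above P5_a2iL_1, and it had 27.2%, against 7.21% in P5_2iL_F, over the 170 cytosines shared with that library. Over the 130 cytosines listed in all 5 libraries Foxd2 passed the rule in P5_LCDM_1 against P5_2iL_F as well as against muscle. In P5_LCDM_1 43.1% of the 130 cytosines listed in all 5 libraries had intermediate levels of 20 to 80%, against 10% to 20.8% in the other teratomas and 13.1% in muscle. The start sequence of Foxd2 printed above did not share the difference.

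Foxf1 (chr8:121084386-121088154) was also highest in P5_LCDM_1 and did not reach the rule over the cytosines of each pair. Over the cytosines listed in all 5 libraries it passed the rule in P5_LCDM_1 against muscle and against P5_a2iL_1. Its body had 41.7% in P5_LCDM_1, 13.8% in P5_a2iL_1, 19.2% in P5_2iL_F, 18.5% in P5_2iL and 16.0% in muscle, as means of 87 cytosines. P5_LCDM_1 was above each of the other libraries, by 24.5 points over P5_a2iL_1, 22.5 over P5_2iL_F, 20.2 over P5_2iL and 19.8 over muscle in the cytosines of each pair. Intermediate levels were found for 70.1% of the 87 cytosines listed in all 5 libraries in P5_LCDM_1, against 26.4% to 36.8% in the other teratomas and 25.3% in muscle. The gene end of Foxf1, at 0.721% in P5_LCDM_1, did not differ from the others by more than 1 point.

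**Figure D2:**
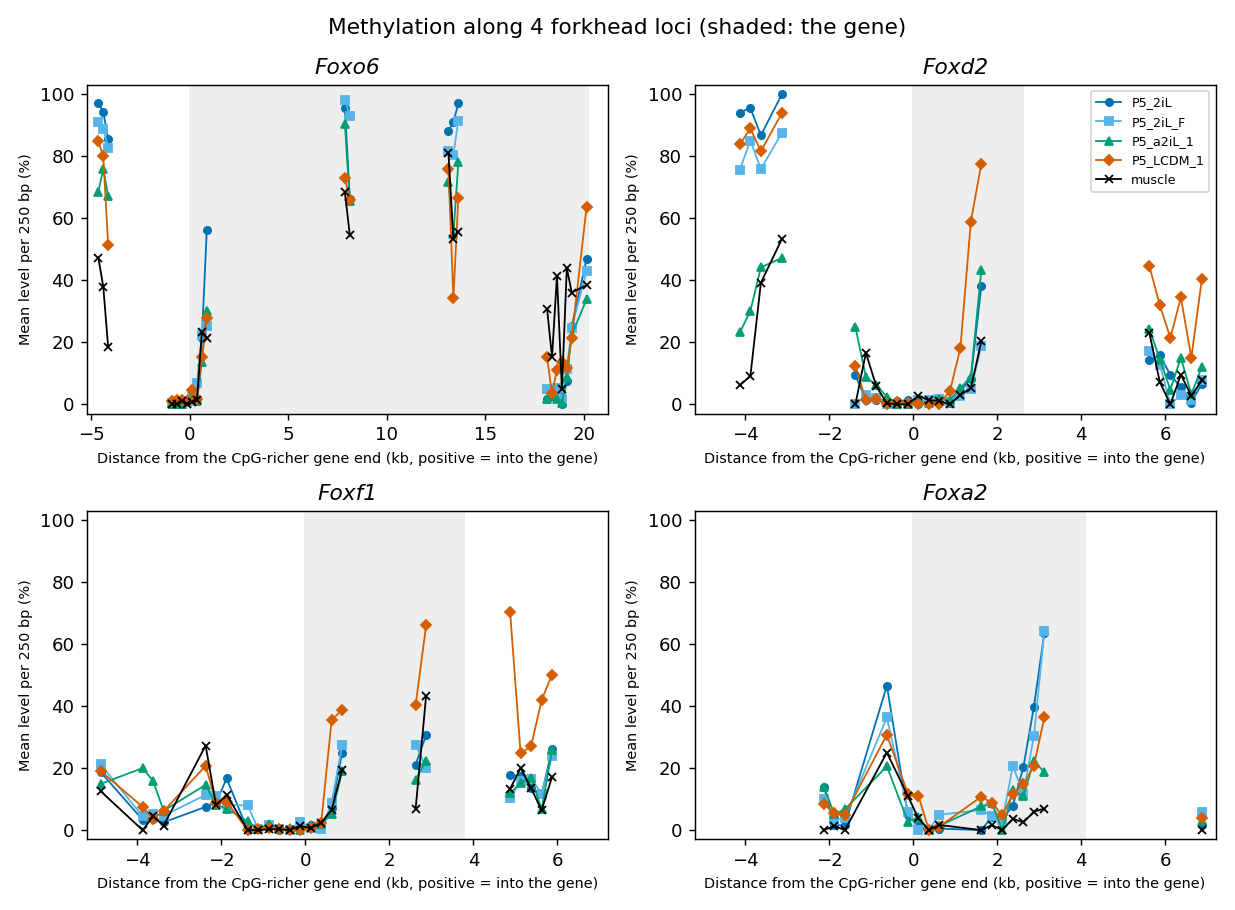
Mean methylation (%) in 250 bp bins along Foxo6, Foxd2, Foxf1 and Foxa2 against the distance in kb from the CpG-richer gene end (0; positive values lie inside the gene, shaded), with 1 line per library, broken where no bin was measured for over 1 kb. At Foxo6, Foxd2 and Foxf1 all libraries lie near 0 at the gene end. P5_LCDM_1 stands highest in the inner bins of Foxd2 and Foxf1, P5_2iL and P5_2iL_F stand highest in the innermost bins of Foxa2, and muscle stands highest in several bins near the far end of Foxo6.

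The third called body was that of Foxr1, a little-studied member. It had 46.1% in P5_LCDM_1, against 80.3% in P5_2iL_F, over 8 cytosines, a difference of -34.2 points. Over the 5 cytosines listed in all libraries P5_LCDM_1 was 5.22 points higher, with 73.8%, against 68.5% in P5_2iL_F. The call therefore rests on the choice of cytosines.

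Foxo6 went the other way. This gene encodes a Foxo factor best known from the brain, and it was the member with the lowest mean difference of body level from muscle. Its body (chr4:120267078-120287261) had 20.1% in P5_2iL, 20.2% in P5_2iL_F, 15.1% in P5_a2iL_1 and 20.7% in P5_LCDM_1, against 33.6% in muscle, over 225 cytosines. All 4 teratomas were below muscle, by differences of -17.4, -16.7, -19.5 and -17.3 points in the cytosines of each pair, and on both strands. The difference lay at the end away from the window. In the tile chr4:120268001-120269000 the levels were 3.34%, 5.08%, 2.67% and 10.4% in the teratomas, against 29.1% in muscle, over 131 cytosines. In the adjoining tile, from 120269001, they were 2.64%, 5.90%, 3.81% and 15.5%, against 33.3% in muscle.

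Beyond its CpG-richer end the Foxo6 locus showed the opposite. The tile chr4:120291001-120292000, outside the gene, had 92.4%, 87.5%, 72.2% and 72.8% in the teratomas, against 34.1% in muscle, over 18 cytosines. The gene end between them was at or below 1.95% in all 5 libraries. These tiles were singled out after their values were seen.

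**Figure D3:**
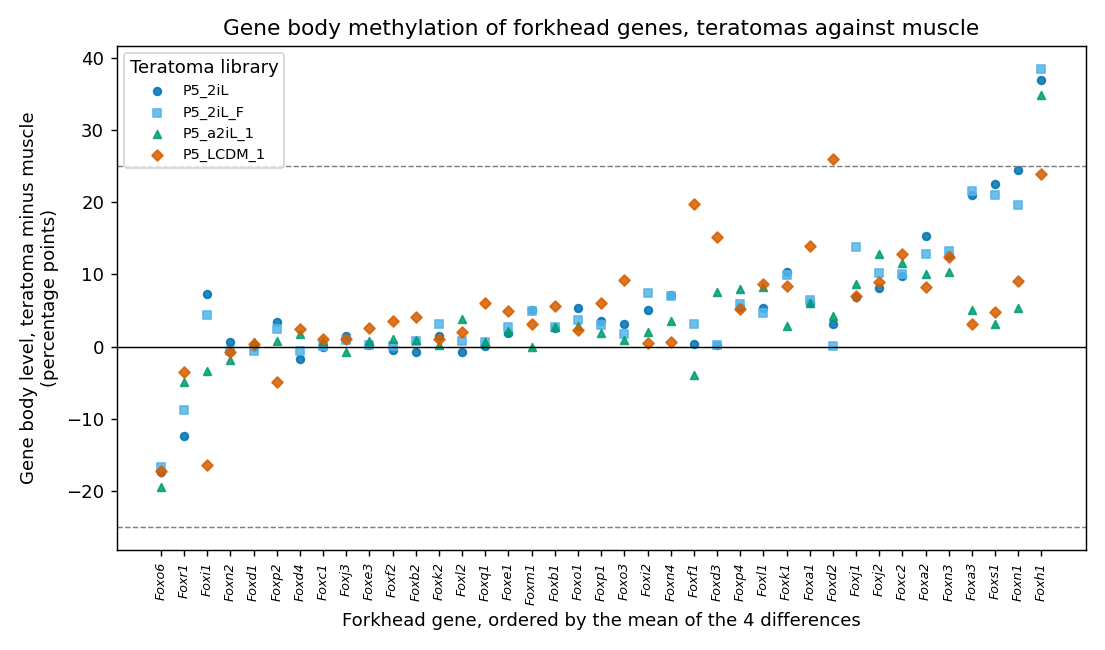
Gene body level of each teratoma minus that of muscle (percentage points, vertical axis) for the 39 forkhead genes, ordered by the mean of the 4 differences, with 1 symbol per teratoma. The dashed lines mark 25 points. Foxo6 lies at the left with differences of -16.7 to -19.5 points, and Foxh1 at the right with 24.0 to 38.5 points.

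Over all 39 members the bodies lay mostly above muscle. The body was above muscle in 31, 34, 32 and 34 of 39 genes in P5_2iL, P5_2iL_F, P5_a2iL_1 and P5_LCDM_1. These are 79.5%, 87.2%, 82.1% and 87.2%, where 79.98%, 78.7%, 70.2% and 60.6% of all gene bodies lay above muscle. The median difference was 3.35, 3.09, 2.09 and 4.81 points in the forkhead genes, against 5.43, 4.97, 2.60 and 1.35 points over all genes. In P5_LCDM_1 minus P5_2iL the median was 1.04 points in the forkhead genes and -3.09 points over all genes. The forkhead genes are richer in CpG-dense cytosines than the average gene. In each density class P5_LCDM_1 stood higher relative to P5_2iL in forkhead genes than over all genes. The classes pool the cytosines of all members, so members with many listed cytosines weigh most. Over all classes Foxp1 gave 1108 forkhead cytosines and Foxn3 gave 875, from gene end and body together. With 5 to below 15 neighbours, forkhead cytosines had 61.3% in P5_2iL and 61.6% in P5_LCDM_1, and all genes 67.5% and 61.5%. With 15 to below 30, the forkhead levels were 17.3% and 19.9%, and those of all genes 24.98% and 24.5%. The part of density in the medians was not tested.

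The endoderm factors of the Foxa group had no call against muscle. The body of Foxa1 had 8.33%, 9.12%, 9.46% and 17.6% in the teratomas, against 2.95% in muscle, over 257 cytosines. That of Foxa2 had 19.5%, 18.7%, 12.1% and 14.0%, against 3.30% in muscle, over 167 cytosines. Each teratoma lay above muscle at both genes. The tile chr2:148043001-148044000 inside Foxa2 had 57.1% in P5_2iL and 56.5% in P5_2iL_F, against 16.2% in P5_a2iL_1, 31.5% in P5_LCDM_1 and 6.58% in muscle. Foxa3 had a body of 87.4% and 86.2% in P5_2iL and P5_2iL_F, 69.1% and 68.5% in P5_a2iL_1 and P5_LCDM_1, and 65.2% in muscle.

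The teratoma libraries P5_2iL and P5_2iL_F kept together at other bodies as well. The body of Foxs1 had 93.8% and 92.4% in these libraries, 74.4% and 76.2% in P5_a2iL_1 and P5_LCDM_1, and 71.2% in muscle. That of Foxn1 had 76.7% and 72.4% in the same pair, 59.8% and 61.8% in P5_a2iL_1 and P5_LCDM_1, and 53.8% in muscle, over 75 cytosines. Foxn1 in P5_2iL was 24.6 points above muscle, just under the rule.

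Fixed tiles of 1 kb in the genes or within 5 kb of them showed differences that the means over whole genes did not. Against muscle 79 of 504 forkhead tiles were called higher in P5_2iL, 84 of 514 in P5_2iL_F, 58 of 503 in P5_a2iL_1 and 72 of 513 in P5_LCDM_1. These are 15.7%, 16.3%, 11.5% and 14.0%, against a background of 17.3%, 16.2%, 11.3% and 10.1% of all tiles. Lower were 16, 21, 11 and 5 tiles, or 3.17%, 4.09%, 2.19% and 0.975%, with a background of 3.55%, 3.47%, 3.16% and 5.65%. In P5_LCDM_1 the higher share was above the background and the lower share below it, but the higher share was 8.55%, below the background, when the 5 members with most tiles were left out.

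Against the other teratomas P5_LCDM_1 had fewer lower forkhead tiles than tiles in general. In P5_LCDM_1 minus P5_2iL 34 of 553 tiles were called higher and 34 lower, 6.15% each, with a background of 3.29% higher and 12.9% lower. In P5_LCDM_1 minus P5_2iL_F the counts were 43 and 33 of 573, or 7.504% and 5.76%, against 3.33% and 11.9%. In P5_LCDM_1 minus P5_a2iL_1 they were 38 and 15 of 545, or 6.97% and 2.75%, against 3.82% and 7.49%. In P5_LCDM_1 minus P5_2iL the long genes Foxp1, Foxn3 and Foxo3 held 11, 6 and 4 of the 34 higher tiles. Of the 34 lower tiles they held 3, 4 and 1. The counts between teratomas were not recomputed without the members with most tiles, so the higher shares may not hold for the other members. CpG density differs between these sets of tiles, and its part was not tested at the level of tiles.

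Pairs of the other teratomas lay closer to the background. In P5_a2iL_1 minus P5_2iL 24 tiles were called higher and 34 lower of 535, or 4.49% and 6.36%, against 3.11% and 7.12%. In P5_a2iL_1 minus P5_2iL_F 21 were higher and 37 lower of 556, or 3.78% and 6.65%, against 2.96% and 6.15%. In P5_2iL_F minus P5_2iL 15 were higher and 8 lower of 581, or 2.58% and 1.38%, against 1.78% and 2.03%.

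More of the forkhead tiles called higher than muscle lay in Foxn3, Foxp1, Foxo3, Foxk1 and Foxp4, the 5 members with most tiles, than in the other members. Without these genes 26 of 264 tiles were higher in P5_2iL, 31 of 269 in P5_2iL_F, 14 of 267 in P5_a2iL_1 and 23 of 269 in P5_LCDM_1. These are 9.85%, 11.5%, 5.24% and 8.55%, each below the background of higher tiles given above, also in P5_LCDM_1. Foxn3, a repressor with a role in cell cycle checkpoints, contributed 20 of 72 tiles in P5_2iL and 19 of 72 in P5_LCDM_1, where 1 and 0 were lower. In Foxp1 14 of 82 tiles were higher and 7 lower in P5_2iL, and 13 of 84 higher and 0 lower in P5_LCDM_1.

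A tile was counted as set apart when 1 library, or both P5_2iL and P5_2iL_F, lay 25 points or more from the nearest of the others over 5 or more cytosines listed in all 5. Of 420 forkhead tiles, 21 in 8 genes had muscle below all 4 teratomas, which is 5% with a background of 5.2%. In 0 tiles was muscle above all teratomas, with a background of 0.403%. P5_LCDM_1 was above the others in 5 tiles of 4 genes (1.19%, background 0.409%) and below in 1 (0.238%, background 1.29%). P5_2iL and P5_2iL_F together were above the other 3 libraries in 3 tiles (0.714%, background 0.779%) and below them in 5 (1.19%, background 0.626%). P5_2iL alone was above the other libraries in 1 tile, in Foxn3 (background 0.0988%), and below them in 0 (background 0.0655%). P5_2iL_F alone was above in 2 tiles, beside Foxe3 and Foxl1, and below in 1, in Foxk1 (background 0.0446% in each direction). P5_a2iL_1 was above in 0 (background 0.186%) and below in 2, beside Foxc1 and in Foxk1 (background 0.342%). With so few tiles these counts describe the loci and nothing more.

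The 5 tiles in which P5_LCDM_1 stood above the rest were in Foxd2, Foxf1 and Foxp1 and at the end of Foxl2. In Foxd2 the tile chr4:114907001-114908000 had 47.6% in P5_LCDM_1, against 16.3% in P5_a2iL_1, 7.54% in P5_2iL_F, 14.4% in P5_2iL and 8.17% in muscle, over 85 cytosines. In Foxf1 the tile chr8:121087001-121088000 had 52.1% in P5_LCDM_1, against 18.4% to 22.3% in the other teratomas and 26.6% in muscle. At Foxl2, a factor of the ovary and eyelid, the tile chr9:98958001-98959000, most of which lies past the gene's end at 98958126, had 45.4% in P5_LCDM_1, against 5.12% to 9.69% in the other teratomas and 13.1% in muscle, over 23 cytosines.

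In Foxp1 they were the adjoining tiles from chr6:99265001 and chr6:99266001. The second had 70.1% in P5_LCDM_1, against 12.6% in P5_a2iL_1, 2.44% in P5_2iL_F, 2.41% in P5_2iL and 13.1% in muscle, from 13 cytosines. The first had 64.0% in P5_LCDM_1, against 0.769% to 11.4% in the other teratomas and 23.2% in muscle. This stretch holds the CpG-poor start chr6:99266466-99266765 printed above, about 256 kb inside the gene. The CpG-rich start of Foxp1 with 44 CpGs showed no such difference.

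Tiles in which P5_2iL and P5_2iL_F were below the other 3 libraries lay in Foxp1, Foxo3 and Foxp4. In Foxp1 the tile from chr6:99275001 had 6.65% and 4.05% in these libraries, against 47.7% in P5_a2iL_1, 53.6% in P5_LCDM_1 and 57.8% in muscle, over 18 cytosines. The tile from chr6:99191001 had 0% and 13.2% in them, against 58.6%, 74.1% and 75.9%. In Foxo3 the tile from chr10:42226001 had 46.6% and 40.7%, against 75.6% in P5_a2iL_1, 87.2% in P5_LCDM_1 and 98.0% in muscle, over 25 cytosines. In the tiles named here P5_a2iL_1 and P5_LCDM_1 lay nearer to muscle than to the other teratomas. The rule that picked the tiles sets these libraries and muscle at least 25 points above P5_2iL and P5_2iL_F. This order is therefore largely built in and no separate result.

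The opposite order held elsewhere in the same genes. The Foxp1 tile from chr6:98948001 had 92.8% and 95.3% in P5_2iL and P5_2iL_F, against 65.5% in both P5_a2iL_1 and P5_LCDM_1 and 46.9% in muscle, over 25 cytosines. The Foxa3 tile from chr7:19021001 had 65.7% and 69.2% in that pair, against 28.1%, 19.5% and 0.926% in P5_a2iL_1, P5_LCDM_1 and muscle. The mean over the Foxp1 body hid these contrasts, at 50.5%, 50.2%, 49.3% and 53.7% in the teratomas and 47.5% in muscle.

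**Figure D4:**
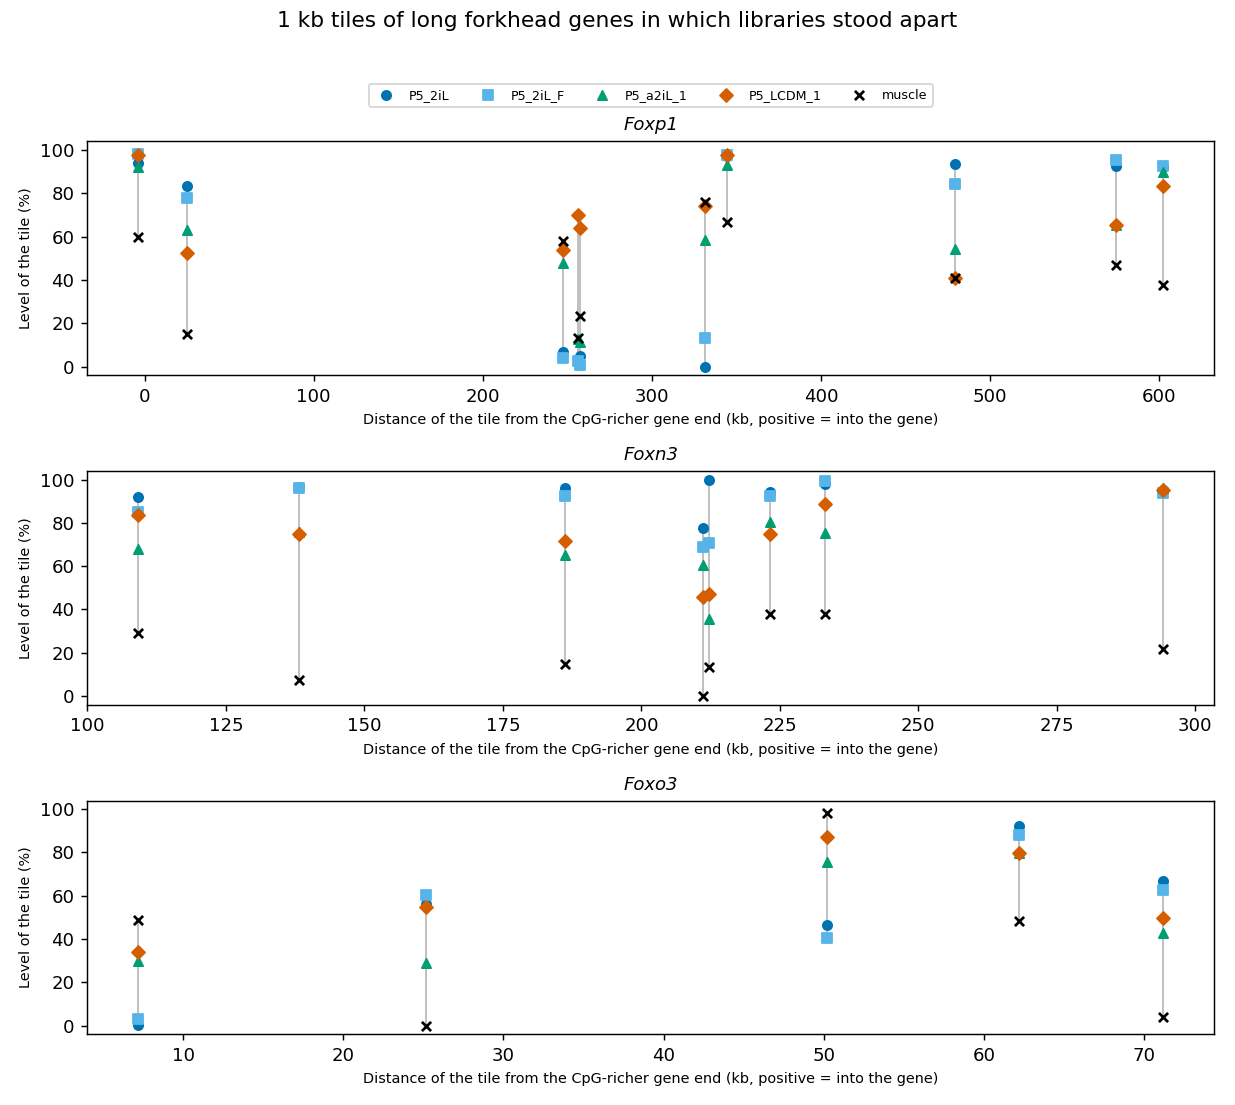
Methylation level (%) of the 1 kb tiles of Foxp1, Foxn3 and Foxo3 in which a library or the pair of P5_2iL and P5_2iL_F stood apart, against the distance of the tile's centre from the CpG-richer gene end (kb, positive into the gene). Grey bars join the lowest and the highest of the 5 libraries in a tile. Muscle lies lowest in all 8 Foxn3 tiles, while Foxp1 and Foxo3 also hold tiles in which P5_2iL and P5_2iL_F lie lowest.

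Muscle was the low library in 7 tiles of Foxn3, spread over the gene. The tile from chr12:99269001 had 95.0%, 93.9%, 96.0% and 95.4% in the teratomas, against 21.9% in muscle, over 12 cytosines. That from chr12:99425001 had 96.7%, 96.1%, 75.7% and 74.9%, against 7.5% in muscle. In Foxo3 the tile from chr10:42205001 had 66.8%, 62.7%, 43.0% and 49.9%, against 4% in muscle, over 25 cytosines. In Foxo1 the tile from chr3:52272001 had 91.0%, 76.5%, 56.8% and 52.8%, against 17.9% in muscle, over 8 cytosines. These tiles were picked by the rule that every teratoma lies at least 25 points above muscle, so that this order is no separate result. Foxo1 and Foxo3 are activated in muscle wasting, and a link of these tiles to it was not tested.

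Partner and target genes of forkhead factors were read at their CpG-richer ends in 7 lists of 16 genes. Among 15 measured Nodal and Smad partners of Foxh1, 1 was called higher and 1 lower in P5_2iL than in muscle, 1 and 0 in P5_2iL_F, 1 and 0 in P5_a2iL_1, and 2 and 1 in P5_LCDM_1. Of all gene ends 5.96%, 5.62%, 3.99% and 4.61% were called in either direction in these comparisons. With 15 genes the counts describe single loci and not the list as a whole. The Nodal antagonist Lefty1 was called in all 4, with 95.8%, 92.9%, 87.5% and 81.5% in the teratomas, against 42.6% in muscle, over 30 cytosines. Gdf3, a ligand that acts with Nodal, had 40.3% in P5_2iL and 34.7% in P5_LCDM_1, against 70.0% in muscle. Nodal itself had 33.7% in P5_LCDM_1, against 0% in muscle, over 18 cytosines. Between teratomas 2, 1 and 1 of the 15 were called higher in P5_LCDM_1 than in P5_2iL, P5_2iL_F and P5_a2iL_1, and 0 lower. In these pairs 4.54%, 4.25% and 3.12% of all gene ends were called in either direction.

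The insulin and Foxo lists held at most 1 call in each teratoma against muscle, where 4.61% of all gene ends were called in P5_LCDM_1, 5.96% in P5_2iL and 5.62% in P5_2iL_F. Upstream of Foxo, 1 of 12 measured genes was called higher in P5_LCDM_1, the kinase Sgk1 with 58.6%, against 24.8% in muscle, over 65 cytosines, and 0 of 12 in the other teratomas. In this list 1 of 12 was also called higher in P5_LCDM_1 than in each other teratoma. Of all gene ends 4.54% were called in P5_LCDM_1 minus P5_2iL, 4.25% in P5_LCDM_1 minus P5_2iL_F and 3.12% in P5_LCDM_1 minus P5_a2iL_1. Among Foxo targets 1 of 12 was called higher in P5_2iL, the gluconeogenic enzyme gene Pck1 with 95.2%, against 66.0% in muscle. In P5_2iL_F 1 of 12 was called higher, the muscle atrophy ligase gene Trim63 with 74.2%, against 46.0% in muscle. In P5_a2iL_1, where 3.99% of all gene ends were called against muscle, 0 of 14 were called, and in P5_LCDM_1 0 of 12. Between teratomas 1 of 13 Foxo targets was called lower in P5_LCDM_1 minus P5_2iL and 1 of 13 in P5_LCDM_1 minus P5_2iL_F.

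Against muscle no gene was called in any teratoma in 4 other lists. These were 14 measured motile cilia genes listed with Foxj1, 12 endoderm partners and targets of Foxa, 16 cell cycle targets of Foxm1, and 14 mesoderm and vessel genes listed with Foxc and Foxf. Of all gene ends 5.96% were called in P5_2iL, 5.62% in P5_2iL_F, 3.99% in P5_a2iL_1 and 4.61% in P5_LCDM_1. With 12 to 16 genes per list and such shares, the lack of calls describes no trait of these lists. In P5_LCDM_1 minus P5_2iL 1 of 15 of the mesoderm and vessel genes was called lower, where 4.54% of all gene ends were called. The median differences of the 4 lists from muscle ran from -0.27 to 1.42 points, where the medians of all gene ends were 0.21 to 0.26 points.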

How the data were processed

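Reduced representation bisulfite libraries of 4 teratomas and 1 muscle were used. The authors' deposited files give the methylation level of each CpG cytosine in percent, with the strands on separate lines. The tools named are Bismark and Trim Galore 0.6.4 and the build is mm10, per the submitters' processing notes. The version of Bismark was not given in the sources used here, nor was a coverage minimum. The start column counts from 1: all 492052 listed cytosines inside RefSeq promoter sequences lay in a CG when read so, and 56.2% when counted from 0.

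Levels are unweighted means, over cytosines listed in all 5 libraries or, for a difference, in both libraries compared. All protein-coding genes of RefSeq GRCm38.p6, the same build as mm10, were processed alike, and the forkhead genes read from that table. The planned Fisher tests need read counts and were replaced by the rule of 25 points alone. Every called member was named, with at most 3 called genes per list. The code was tested on simulated data. Alternatives were thresholds, strands, medians, windows, shared cytosines and centring. Sets of markers covered skeletal muscle, blood, endothelium, neural tissue and epithelium. The members, lists and named tiles were chosen with earlier results of these data known. Python 3.11.15, numpy 2.4.6 and pandas 2.3.3 were used.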

Additional observations from a re-analysis of the deposited data

How the results depend on the processing

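Counts of called forkhead genes were small, and most moved by 1 or 2 under some setting. At the gene end, the count in P5_2iL minus muscle was 1, and 0 at 30 points, on the minus strand or with medians. In P5_2iL_F minus muscle it was 1, with 2 at 20 points and 0 at 30 points, on the minus strand or with medians. In P5_a2iL_1 minus muscle it was 0, with 2 on the plus strand and 1 on the minus strand or with medians. In P5_LCDM_1 minus muscle it was 0, with 2 at 20 points, 3 on the plus and 1 on the minus strand. From 0 the count moved to 1 in P5_a2iL_1 minus P5_2iL (20 points, minus strand, medians, cytosines in all 5 libraries), to 1 in P5_a2iL_1 minus P5_2iL_F (minus strand, cytosines in all 5), and in P5_LCDM_1 minus P5_a2iL_1 to 1 (20 points, a window of 500 bp on each side) or 3 (minus strand). The Foxi1 differences of P5_2iL and P5_2iL_F from muscle were -20 and -10 points on the minus strand. The window at the annotated start, for the 25 genes with a strand, changed no count at the gene end. It could hardly change one, because in 22 of these genes, among them Foxi1, it was the window already used.

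In the gene body the main count against muscle was 1 for each teratoma, and 0 with gene end and body pooled. It was otherwise 4 at 20 points, 2 on either strand and 7 with medians in P5_2iL. In P5_2iL_F it was 3 at 20 points, 2 on the minus strand and 3 with medians, and in P5_a2iL_1 it was 2 on either strand and 3 with medians. In P5_LCDM_1 it was 2 at 20 points, 0 at 30 points, 0 on the plus and 2 on the minus strand, 7 with medians, 2 over cytosines in all 5 libraries, and 0 after subtracting the median of all genes. Foxd2 in P5_LCDM_1 was 24.7 points above muscle after that subtraction and 11.1 points with the gene end pooled, and Foxh1 in P5_2iL, P5_2iL_F and P5_a2iL_1 19.99 to 21.9 points when pooled. Between teratomas the count with medians was 3 in P5_a2iL_1 minus P5_2iL and 2 in P5_a2iL_1 minus P5_2iL_F, where the main count was 0. In P5_LCDM_1 minus P5_2iL it was 0, with 2 at 20 points, 1 on the minus strand and 5 with medians. In P5_LCDM_1 minus P5_2iL_F it was 1, with 4 at 20 points or with medians, 0 on the plus strand and 2 after subtraction. In P5_LCDM_1 minus P5_a2iL_1 it was 0, and 1 at 20 points, on the plus strand, with medians, over cytosines in all 5 libraries and after subtraction. The Foxr1 difference became 5.22 points over cytosines in all 5 libraries. There the 1 gene called in P5_LCDM_1 minus P5_2iL_F was Foxd2, higher. On the minus strand the 1 gene called in that pair was Foxi1, lower.

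For tiles, alternatives were chosen after seeing the data. Without the 5 members with most tiles, 26 were higher and 5 lower in P5_2iL than in muscle, 31 and 8 in P5_2iL_F, 14 and 5 in P5_a2iL_1, and 23 higher in P5_LCDM_1. Lower tiles numbered 7 at 30 points in P5_a2iL_1, and in P5_LCDM_1 2 with a minimum of 5 cytosines and 8 at 20 points. The cause of these moves was not tested. Of the counts recomputed, 155 stayed within 1.5 times the main count and 67 did not. No paired analysis was possible because each tissue has 1 library. The depth behind a percentage is unknown, so windows of few cytosines, such as those of Foxi1 and Foxr1, are the least certain.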

Other observations

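Markers of 3 further tissues were read at their CpG-richer gene ends beside the muscle and blood genes given above. Of 8 measured endothelial genes 1, 1, 2 and 1 were called higher in P5_2iL, P5_2iL_F, P5_a2iL_1 and P5_LCDM_1 than in muscle, and 2, 2, 0 and 2 lower. Of 10 neural genes 2, 1, 2 and 1 were called higher and 0 lower. Of 8 measured epithelial and endodermal genes 1, 1, 1 and 2 were called higher, and 0, 0, 0 and 1 lower. The shares of all gene ends called in either direction were 5.96%, 5.62%, 3.99% and 4.61%. With 8 or 10 genes the counts describe single loci and not a list as a whole.

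Among the teratomas the skeletal muscle gene ends also differed, with a median of -13.0 points in P5_LCDM_1 minus P5_2iL and 4 of 19 genes called lower. The median was -2.96 points in P5_a2iL_1 minus P5_2iL, with 1 of 19 called lower, and -0.28 points in P5_2iL_F minus P5_2iL, with 1 of 21 called higher. In these pairs, in that order, 4.54%, 3.16% and 0.806% of all gene ends were called. Their medians were -0.02, -0.06 and -0.01 points. Endothelial gene ends had a median of 16.3 points in P5_a2iL_1 minus P5_2iL_F and of -16.7 points in P5_LCDM_1 minus P5_a2iL_1. Over all gene ends the medians of these pairs were -0.01 and 0 points.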
